A study of Mus musculus with 8 samples.

Results

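Lens fibers were compared between E14.5, in embryonic days, and P0.5, in days after birth, by the regions that ATAC-seq called open at one stage and not at the other. Of 123743 peaks in E14.5 fibers, 94225 had no overlapping peak in P0.5 fibers (76.1%, 95% Wilson interval 75.9 to 76.4), and 26748 of the 62995 peaks called in P0.5 fibers had none in E14.5 fibers (42.5%, 42.1 to 42.8). These 120973 stage-only peaks were chosen by a single rule, the absence of a 1-bp overlap in the other fiber list, from 186738 fiber peaks and 345333 peaks in the 4 lists of the series. Intervals cover counting error only.

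Lenses came from CD1 mice, split into epithelium and fibers at each stage, with 2 libraries in each of 4 groups. Both fiber groups were microdissected from lenses of the same strain, with no genotype, treatment or transgene named, and several lenses entered each library. By the paper's methods, P0.5 fiber libraries used fewer lenses but more cells than E14.5 ones, with the same amount of transposase. These differences cannot be told apart from stage here. The deposited lists are named as pooled over the 2 libraries of a group, so 1 list stood for each stage. They hold no value per library, and no test between the stages could be made from them. In ATAC-seq the transposase Tn5 inserts sequencing adapters into accessible DNA, and a peak marks a region where insertions exceed the local background. The lists carried no read counts, and the study's own summary gives fewer read pairs and a lower share of reads inside peaks for P0.5 fibers, which cannot be told apart from stage here.

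Lens fibers form when epithelial cells at the lens equator leave the cell cycle, elongate and fill with crystallins, the soluble proteins that give the lens its refractive power. At E14.5 the primary fibers have filled the lens vesicle and secondary fibers are being added around them, and around birth the central fibers approach the stage at which nuclei and other organelles are degraded. Open chromatin in such cells marks active promoters, enhancers inside introns and between genes, and sites held by architectural proteins such as CTCF.

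The labelled tissue was checked against its markers. Of 12 fiber markers, 11 held a promoter peak at both stages, and Dnase2b, the nuclease that removes fiber DNA, held none at either. Promoter peaks did not separate fibers from epithelium: 7 of 8 epithelium markers, Foxe3 and Cdh1 among them, held a promoter peak in fibers at both stages, and the eighth, Sulf1, held one at E14.5 alone. Here and below a gene kept its promoter peak where it held one at both stages, overlapping or not, and lost it where it held one at E14.5 alone, as 8.28% of all protein-coding genes did. Of 8 endothelial markers 3 kept a promoter peak (Cdh5, Cldn5 and Kdr), 3 lost it (Esam, Pecam1 and Tek) and 2 had none. With equal numbers of peaks in both lists 2 endothelial and 2 retina markers lost it, against 3 and 4 in the full lists. Of 8 blood and macrophage markers 2 kept it and 5 had none, with Ptprc, Gata1 and Tyrobp without a promoter peak at either stage. Of 8 periocular mesenchyme markers 7 kept it, of 8 retina markers 3 (Six6 through peaks that did not overlap), with Crx, Otx2 and Rax among those lost and Neurod1 gained, and of 8 cornea markers 1. Median gene body coverage of these lists was lower at P0.5 than at E14.5 in every case, at 0.813% against 2.08% for endothelium and 2.88% against 14.2% for retina, as it was for fiber markers (6.25% against 69.7%); the part that other cell types had in the stage-only peaks was not tested.

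Sequences of some stage-only peaks are shown as examples of the motif letters described below. Each line gives 200 bp around the summit, plus strand of GRCm38, with matches on either strand in capitals to 4 sets of letters: CCA, any 2 bases, AG, any 2 bases and GGC for CTCF, TGCTGA for the Maf half-site, ACAATG for Sox and TGANTCA for AP-1. Chosen after their values were seen, these are the 3 highest-ranked E14.5-only peaks outside promoters with a CTCF match, the highest-ranked with a Maf and with a Sox match, the highest-ranked E14.5-only peak of Ank2, the highest-ranked P0.5-only peak outside promoters with a CTCF match, and the highest-ranked P0.5-only peak of the chromosome 17 region described below.
E14.5-only, intergenic, nearest gene Mir682, chr13:75427036-75427235: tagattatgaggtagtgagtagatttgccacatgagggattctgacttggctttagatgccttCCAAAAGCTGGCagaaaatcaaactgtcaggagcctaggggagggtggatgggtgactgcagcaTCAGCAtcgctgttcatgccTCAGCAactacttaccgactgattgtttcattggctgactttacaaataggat
E14.5-only, Ssc5d gene body, chr7:4943296-4943495: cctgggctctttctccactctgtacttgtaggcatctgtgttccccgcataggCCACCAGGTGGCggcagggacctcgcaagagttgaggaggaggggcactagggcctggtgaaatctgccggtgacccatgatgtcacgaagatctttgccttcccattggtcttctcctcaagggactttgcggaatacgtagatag
E14.5-only, Itgb1 gene body, chr8:128724919-128725118: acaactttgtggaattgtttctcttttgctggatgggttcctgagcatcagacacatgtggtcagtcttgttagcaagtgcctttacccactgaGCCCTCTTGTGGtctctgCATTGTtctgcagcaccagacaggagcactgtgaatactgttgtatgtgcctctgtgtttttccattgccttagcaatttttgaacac
E14.5-only, Itgav gene body, chr2:83759247-83759446: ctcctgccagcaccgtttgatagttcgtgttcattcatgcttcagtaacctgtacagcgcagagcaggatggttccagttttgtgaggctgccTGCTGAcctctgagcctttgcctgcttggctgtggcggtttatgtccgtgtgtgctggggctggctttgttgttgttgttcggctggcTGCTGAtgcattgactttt
E14.5-only, distal to Mboat1, chr13:30128603-30128802: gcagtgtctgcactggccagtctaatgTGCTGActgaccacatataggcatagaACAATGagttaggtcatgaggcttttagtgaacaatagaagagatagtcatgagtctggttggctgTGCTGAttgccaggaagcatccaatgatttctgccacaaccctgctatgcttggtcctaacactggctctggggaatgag
E14.5-only, Ank2 gene body, chr3:127341357-127341556: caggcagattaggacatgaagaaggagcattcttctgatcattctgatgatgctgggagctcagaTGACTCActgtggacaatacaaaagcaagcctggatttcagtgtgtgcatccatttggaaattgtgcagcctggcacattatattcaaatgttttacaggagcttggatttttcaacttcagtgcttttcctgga
P0.5-only, Ticam1 gene body, chr17:56271858-56272057: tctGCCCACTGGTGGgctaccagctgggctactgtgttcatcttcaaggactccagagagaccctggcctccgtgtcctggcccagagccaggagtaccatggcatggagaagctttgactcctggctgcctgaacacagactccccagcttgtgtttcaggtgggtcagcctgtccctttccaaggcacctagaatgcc
P0.5-only, Dnah8 gene body, chr17:30753347-30753546: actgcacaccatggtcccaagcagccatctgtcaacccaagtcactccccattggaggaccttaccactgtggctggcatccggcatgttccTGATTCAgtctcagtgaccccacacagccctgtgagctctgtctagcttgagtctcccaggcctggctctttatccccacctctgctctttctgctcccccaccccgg

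The Itgb1 and Itgav peaks lie 39365 and 34950 bp into genes for the β1 and αv integrin chains, receptors by which lens cells bind the capsule. The window in Itgb1 holds 1 CTCF match and 1 Sox match, and that in Itgav holds 2 Maf half-sites. The window at -7787 bp from the start of Mboat1, which encodes a membrane-bound O-acyltransferase, holds 2 Maf half-sites and 1 Sox match. In Ank2, the gene of the membrane skeleton protein ankyrin-B, the highest-ranked of its stage-only peaks holds 1 AP-1 match. The letters are a description of these windows and not a record of binding. Maf and Sox matches were used to choose windows among E14.5-only peaks alone, so the windows shown do not compare the stages for these letters. The highest-ranked P0.5-only peak in a protein-coding gene body, in E030030I06Rik and not shown, holds 1 Maf half-site and 1 Sox match.

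Stage-only peaks came from the weaker part of each list, by fold enrichment ranked within the list from 1, the highest. None of the 1011 peaks within the top 1000 ranks at E14.5 was absent from P0.5 fibers, and the highest-ranked E14.5-only peak stood at rank 3115. At P0.5, 3 of 1063 such peaks were absent from E14.5 fibers. In the strongest decile of the E14.5 list, 7.98% of 12500 peaks were E14.5-only (7.51 to 8.46), in the next decile 55.3%, and in the weakest decile 93.6%. The P0.5 list ran from 0.171% in its strongest decile (11 of 6448 peaks) through 5.49% and 27.3% to 72.6% in its weakest. In the second decile, E14.5-only peaks were already the majority, and P0.5-only peaks were still scarce.

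**Figure D1:**
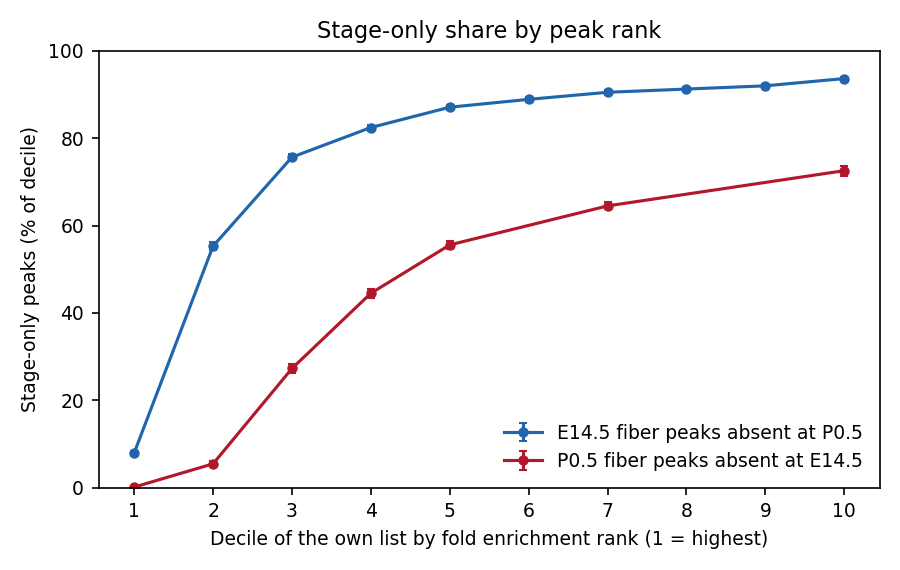
The y axis is the share of peaks, in percent, with no overlapping peak in fibers of the other stage, and the x axis is the decile of the own list by fold enrichment rank; bars are 95% Wilson intervals, most of them smaller than the points, and deciles left empty by tied values have no point. The share rises from 7.98% to 93.6% at E14.5 and from 0.171% to 72.6% at P0.5.

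Width moved in the same way. E14.5-only peaks had a median width of 249 bp against 846 bp for shared E14.5 peaks, and P0.5-only peaks 148 bp against 251 bp. Open sequence covered 61.3 Mb at E14.5 and 18.5 Mb at P0.5, of which stage-only peaks held 30.7 Mb (50.2%) and 4.61 Mb (24.9%). Of E14.5-only peaks 76.3% had a q value under 0.001, and of P0.5-only peaks 24.96%. Few peaks lay near the 1-bp edge of the rule: 1322 E14.5-only and 1435 P0.5-only peaks had a peak of the other stage within 100 bp, and 215 E14.5 and 250 P0.5 peaks were shared through 10 bp or less. The calls did depend on the overlap asked for: with 50% of both peaks, 114463 E14.5 and 53715 P0.5 peaks were stage-only. With equal numbers of peaks in both lists, 61.7% of E14.5 and 51.0% of P0.5 peaks were stage-only, which changed the ratio of the counts from 94225 against 26748 to 38893 against 32157. With q under 0.001 in both lists the shares moved the other way, to 79.7% of 99674 E14.5 and 23.6% of 30793 P0.5 peaks.

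The location of stage-only peaks was nearly alike at both stages. A promoter here spans 2 kb on either side of a transcription start site. Promoters held 11.1% of E14.5-only and 9.69% of P0.5-only peaks, a difference of -1.39 percentage points (-1.79 to -0.975), against 48.8% and 51.3% of shared peaks. The difference turned to +12.3 points when sharing required an overlap of 50% of both peaks, and its interval held 0 with q under 0.001 in both lists (-1.49 to 0.0565) and at the own stage (-0.855 to 0.729). Gene bodies held 60.4% of both sets, with a difference of 0.0302 points (-0.635 to 0.693). Sites within 50 kb of a gene held 21.6% and 20.9%, and intergenic sites 6.92% and 8.94% (2.02 points, 1.65 to 2.41). Read the other way, 42.0% of E14.5 promoter peaks had no P0.5 partner against 84.7% of gene body peaks, and 12.2% of P0.5 promoter peaks had no E14.5 partner against 57.1% of gene body peaks.

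Inside gene bodies the sets differed in the element they marked. The summit lay in an exon in 9.41% of 56911 E14.5-only gene body peaks (9.17 to 9.65) and in 24.5% of 16149 P0.5-only ones (23.9 to 25.2), while shared peaks stood at 19.8% and 21.4%. Most gene body peaks of every set were intronic: 90.4% of E14.5-only, 75.4% of P0.5-only, and 79.7% and 78.5% of shared peaks. Repeat sequence covered at least 50% of 2.67% of E14.5-only and 5.21% of P0.5-only peaks, and median GC in the 200 bp around the summit was 51.5% and 54.5%, against 60% in shared peaks of both lists.

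The genes with the most E14.5-only peaks were long. Ank2 held 234 of them over 578 kb, the most of any protein-coding gene, against 3 P0.5-only peaks, and its covered length went from 16.6% of the gene to 0.480%. Slit3, the gene of a guidance ligand, held 232, and Msi2, which encodes an RNA-binding protein, held 208, with coverage going from 37.4% to 2.38% of the gene. The others of the 10 highest counts were Ctnnd2 (175), Trpm3 (167), Arid1b (166), Cdh4 (158), Cadm1 (152), Dst (143) and Asap1 (141). Ctnnd2, Cdh4 and Cadm1 encode a catenin, R-cadherin and an adhesion molecule of the immunoglobulin family, Dst a cytoskeletal linker, and Trpm3 the cation channel whose intron holds the lens microRNA Mir204. All 10 of these genes kept a promoter peak at P0.5. In all, 126 genes held 50 or more E14.5-only peaks, and 2 held 50 or more P0.5-only peaks.

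The highest-ranked E14.5-only peaks lay at small RNA genes and at introns or distal sites. The leading peak, 2352 bp wide, covered Rnu1a1, a copy of the U1 splicing RNA, and others of the 10 highest covered Rnu3b1, Rnu2-10, Snord118 and Rnu3b3. Near-identical copies of these genes share reads, so their peaks are uncertain. The remaining members of the 10 stood at -2567 bp from the start of Ube2v1, in the Itgav gene body, at -7787 bp from Mboat1, at -238425 bp from the noncoding gene Gm36742 and at the start of Ccdc77. The P0.5-only peak of highest rank, 106 bp wide at rank 32, stood at -21560 bp from the start of Igf2bp3. It was followed by peaks near Cartpt, in E030030I06Rik, near Gm2237, Hjurp, Gm4981, Hrh2 and Gm20826, near the noncoding gene 1700124M09Rik and near Gm40035. Of these 10 peaks 6 were 131 bp wide or less, and no blacklist of artefact-prone regions was applied to them here.

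Of 257 E14.5 peaks over 4 kb wide, 6 had no P0.5 peak in any part. Among them were sites in the gene bodies of Prox1 (5053 bp), Ndrg1 (4371 bp) and Capn3 (7436 bp), across Pgam2 and Dbnl (4142 bp), and at a distal site nearest to Ywhaz (4326 bp). Prox1 encodes a homeodomain factor needed for fiber elongation, and Capn3 a calpain with a lens form. No epithelium peak of either stage lay in the Ndrg1 and Ywhaz sites. P0.5 epithelium also had none in the Pgam2 site, where E14.5 epithelium had 1. Of the 257, 231 held 2 or more P0.5 peaks, and over all 257 the median was 4 P0.5 peaks and 39.1% of the length inside them. The widest, 31780 bp over Crybb1 and Tpst2, held 20 P0.5 peaks on 33.0% of its length, the 18737 bp over Cryaa held 12 on 48.9%, and the 15066 bp over Slc2a1 held 2 on 2.55%. Pax6 and Mip lay under E14.5 peaks of 10551 and 9371 bp, of which 49.0% and 30.2% were covered at P0.5. These wide sites were singled out after their values were seen. At the other end, 90.3% of the 88373 E14.5 peaks of 500 bp or less were E14.5-only.

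Promoters were the most stable sites. Of 21000 protein-coding genes, 13213 (62.9%) held a promoter peak at both stages, 5689 at neither, 1738 at E14.5 alone (lost, 8.28%) and 360 at P0.5 alone (gained, 1.71%). With equal numbers of peaks in both lists, 1226 were lost and 671 gained, and with q under 0.001 in both lists 2550 were lost and 132 gained. Of genes with an E14.5 promoter peak, 11.6% lost it. Of the lost promoters 137 had an E14.5 peak in the top 10% of ranks with no shared peak beside it, and of the gained ones 1 had a P0.5 peak of that rank. Of genes that lost the peak in fibers, 62.1% held a promoter peak in P0.5 epithelium, and of genes that gained one, 15.6% did. Of genes with a fiber peak at both stages 96.7% held one there, and of all protein-coding genes 14063 of 21000.

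The 10 lost promoters of highest rank were those of 4930415O20Rik, Fkbpl, Gdf9, Kcnab3, Fam151b, Rps7, H2ac12, H2bc12, H1f6 and H4c3. The 4 leading ones touched the edge of a peak that P0.5 fibers shared elsewhere, while Fam151b (rank 4666) and Rps7 (rank 4773), the gene of a small ribosomal subunit protein, lost a peak that stood on its own. Histone genes made up 4 of the 10. The replication-dependent histone genes, most of them transcribed in S phase, were then taken as a group, chosen after its values were seen: 56 of 63 held a promoter peak at E14.5 and 33 at P0.5, with 23 lost and 0 gained, and 19 of the 23 held one in P0.5 epithelium. The loss was 41.1% of those with an E14.5 peak, against 11.6% of all protein-coding genes. Neighbouring histone genes can share 1 peak, as H2ac12 and H2bc12 did, so the lost peaks are fewer than the genes. Some of these genes are near-identical copies, which makes single members uncertain. Small nuclear RNA genes, near-identical copies as well, went from 13 to 7 of 18.

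The 10 gained promoters of highest rank were those of Hrh2, Glp1r, Cd34, Gm17266, Gpr15, Insl3, Lat, Ly6d, Tbx10 and Acp7. Hrh2, a histamine receptor gene, had rank 4821 and the others 8818 to 13479. Glp1r encodes the receptor of glucagon-like peptide 1 and stood in the chromosome 17 region described below. None of the 10 is in a lens list used here.

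All crystallin genes but Crygs kept a promoter peak, and in 14 of 16 a smaller part of the gene was open at P0.5. Of 16 crystallins, 15 held a promoter peak at both stages and Crygs, of the γS chain, lost it (1 of 16, against 8.28% of all genes). Gene body coverage, the share of a gene inside peaks, fell by 10 points or more in 14 of 16, against 17.4% of 19556 protein-coding genes of 1 kb or more, and rose by as much in 0, against 0.317%. The median went from 100% at E14.5 to 20.2% at P0.5, beside 4.06% and 1.29% over all genes. A gene covered to less than 10% at E14.5 cannot fall by 10 points, so the shares of lists with high E14.5 coverage and of all genes are not on equal terms.

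Among α-crystallins, Cryaa was covered to 100% at both stages, and Cryab, a small heat-shock protein, went from 72.5% to 17.8%. Among β-crystallins, Crybb3 went from 100% to 71.2%, Crybb1 from 100% to 47.0%, Cryba4 from 93.1% to 29.6%, Cryba2 from 76.5% to 22.5% and Cryba1 from 100% to 12.8%. Crybb2, the β-crystallin best known from the postnatal lens, was 9.99% covered at E14.5 and 11.2% at P0.5, with 1 E14.5-only and 4 P0.5-only peaks. Among γ-crystallins, Cryga kept 36.8%, Cryge 29.5%, Crygb 24.0%, Crygd 12.5% and Crygf 7.71% of genes fully covered at E14.5. Crygc went from 82.2% to 6.97%, Crygn from 98.0% to 17.4% and Crygs from 19.3% to 0. Cryaa and Crybb2 were thus the 2 crystallins whose coverage did not fall by 10 points. With equal numbers of peaks the fall was called in 13 of 16, and Crygs held no promoter peak at either stage.

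**Figure D2:**
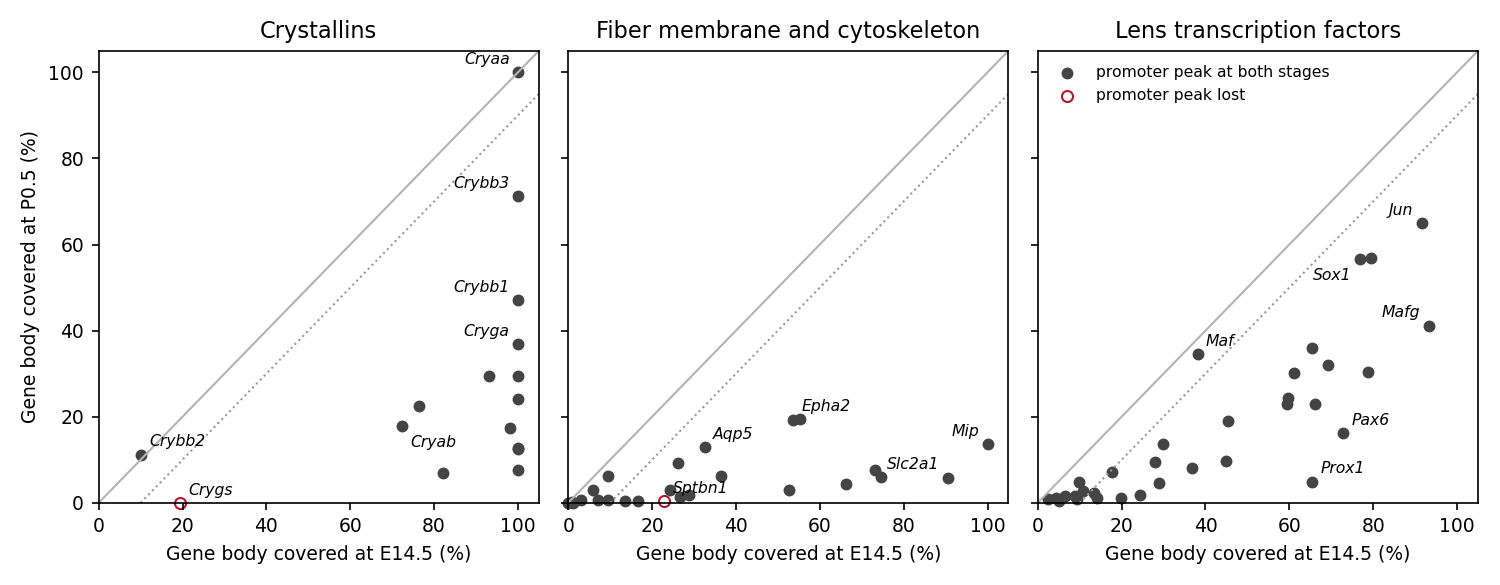
Each point is 1 gene, with the percentage of the gene body inside peaks at E14.5 (x axis) and P0.5 (y axis) for 16 crystallins, 25 fiber membrane and cytoskeleton genes and 34 lens transcription factors; the solid line marks equal coverage, the dotted line a fall of 10 points, and open circles genes that lost the promoter peak. All points but Cryaa, Crybb2 and Lgsn lie below the solid line, and 14, 17 and 24 genes lie at or beyond the dotted line.

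Genes of the fiber membrane and cytoskeleton had the lowest median coverage at P0.5 among these 3 lists of lens genes. A promoter peak stayed in 24 of 25 and was lost at Sptbn1, the gene of β-spectrin, whose 64 E14.5-only peaks were fewer than those of Ank2, Cdh2 and Efna5 alone in that list. Coverage fell by 10 points or more in 17 of 25, against 17.4% of all genes, and the median went from 26.3% to 2.89%. The fall was not particular to lens genes. It was called in 61 of 77 ribosomal protein genes (median 31.5% to 11.2%) and in 25 of 83 nuclear respiratory chain genes (10.5% to 4.24%). Mip, the water channel of fiber membranes, went from 100% to 13.6%, and Slc2a1, a glucose transporter gene, from 90.5% to 5.84%. The beaded filament genes Bfsp1 and Bfsp2 went from 74.7% to 6.03% and from 52.6% to 2.89%. Lim2, of an abundant fiber membrane protein, went from 73.1% to 7.73%. Cdh2, the gene of N-cadherin, held 126 E14.5-only and 0 P0.5-only peaks. Epha2 (19.4%), Grifin (19.5%) and Aqp5 (12.9%) were the members other than Mip with over 10% of the gene open at P0.5. Lgsn and Lctl had under 2% of the gene covered at either stage, and the promoter peaks of Lctl at the 2 stages did not overlap.

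All 34 lens transcription factors held a promoter peak at both stages, where 11.6% of all genes with an E14.5 promoter peak lost it. The study named several of these factors for open chromatin in the same data, so a peak there was partly known beforehand. Coverage fell by 10 points or more in 24 of the 34, against 17.4% of all genes and 61 of 77 ribosomal protein genes. The median of the 34 factors was 33.3% at E14.5 and 8.72% at P0.5. Prox1 went from 65.5% to 4.94%, Pax6, the regulator of eye formation, from 72.9% to 16.1%, Tead1 from 19.9% to 1.18% with 91 E14.5-only peaks, and Zeb2 from 24.4% to 1.75% with 64. Other members kept more, with Jun at 65.0% of 91.5%, Foxe3 at 56.9% of 79.6%, Sox1 at 56.7% of 76.9% and Maf at 34.6% of 38.1%. Maf, the regulator of fiber elongation and crystallin genes, held no stage-only peak in its body at either stage.

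Of 26 organelle loss and autophagy genes, 25 held a promoter peak at both stages and Dnase2b at neither. Coverage fell by 10 points or more in 10, against 17.4% of all genes, and with equal numbers of peaks in 5, against 2307 of 19556 genes. Among the 10 were Tdrd7, a cataract gene of RNA granules (45.7% to 2.84%, with 56 E14.5-only and 0 P0.5-only peaks), and Hsf4, the heat-shock factor of fibers (69.2% to 32.1%). Ctsb, a lysosomal protease gene, was the one member with higher coverage at P0.5 (2.996% and 5.11%), and Tfeb, the regulator of lysosomal genes, held 11 P0.5-only against 8 E14.5-only peaks.

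All 30 replication and mitosis genes held an E14.5 promoter peak and 28 kept it, where 11.6% of all genes with such a peak lost it. Aurkb and Bub1b, of the chromosomal passenger complex and the spindle checkpoint, lost it. Pcna went from 21.9% to 15.7% coverage and Ccna2 from 14.7% to 12.4%. All 12 cell cycle exit genes kept the peak, with Cdkn1c, the p57 inhibitor of fibers, at 78.6% and 52.1% coverage and Cdkn1b at 29.7% and 10.4%.

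Signalling genes lost few promoter peaks, as did all genes with an E14.5 promoter peak (11.6% lost). FGF and ERK response genes kept 18 of 19 promoter peaks, with Fgfr4 lost, and coverage went from 75.9% to 26.0% at Fgfr3 and from 24.0% to 2.16% at Fgfr2, where 58 peaks were E14.5-only. All 14 Notch genes kept the peak. Jag1, the Notch ligand of fibers, went from 68.9% to 5.39%, whereas the target gene Hes5 was covered to 100% at both stages. BMP and TGF-β genes kept 19 of 21, with the receptor genes Bmpr1b and Tgfbr2 lost. All 22 Wnt genes kept it, and the ligand gene Wnt7b went from 67.8% to 14.1%. Of 24 glycolysis and hypoxia genes 23 kept it and Slc2a3 lost it. Aldoc, the gene of a brain-type aldolase, was 13.8% covered at E14.5 and 23.6% at P0.5.

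**Figure D3:**
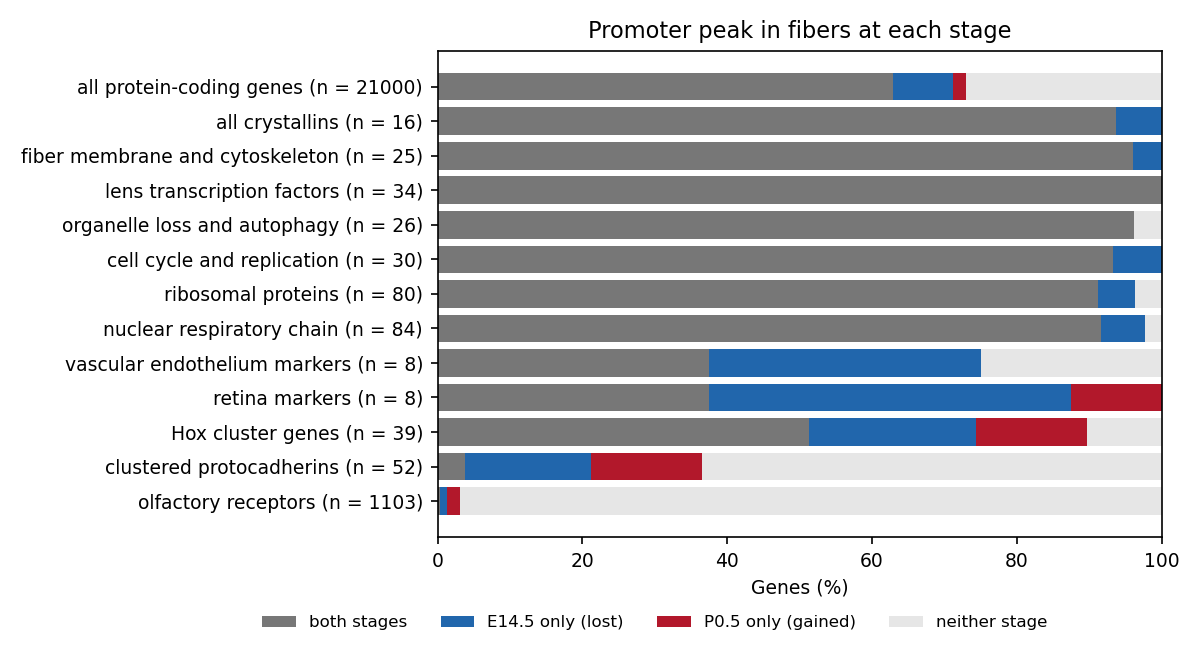
Bars give the percentage of genes in each list with a promoter peak in fibers at both stages, at E14.5 only, at P0.5 only or at neither, with the number of genes beside each name. All 34 lens transcription factors kept the peak, whereas of 39 Hox genes 20 kept it, 9 lost it and 6 gained it; with equal numbers of peaks 15 kept it, 3 lost it and 11 gained it.

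Genes with the largest fall of coverage outside the lens lists were Pgam2 (100% to 0), Gpsm3 (91.9% to 0), Fuz (100% to 13.5%), Ifitm2 (86.5% to 0) and Hspb2 (100% to 16.5%). Hspb2 lies next to Cryab. The largest rise was that of Gh, the growth hormone gene, at 34.4% from 0, followed by Pnmt, Olfr314, Fgf21, Spag8, Abtb1, Olfr551, Bricd5, Insl3 and Neurog3, and each of these 10 but Abtb1 held 1 or 2 P0.5-only peaks. Among 16180 genes of 5 kb or more, 190 were at least 50% covered at E14.5 and 6 at P0.5, of which 5 were so at both stages. The 6 were 1600014C10Rik, Crybb3, Dmrta2, Midn, Mroh2a and Parp3.

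A pair of regions, chosen after their values were seen, held stage-only peaks of 1 kind in long runs. The first stood on chromosome 17. In 500 kb (chr17:30450001-30950000), over Btbd9, Glo1, 1700097N02Rik, Dnah8 and Glp1r, P0.5 fibers had 159 P0.5-only peaks and E14.5 fibers 9 E14.5-only ones. Each of its 10 bins of 50 kb held 9 to 22 P0.5-only peaks, whereas the 250 kb before it held 5 and the 250 kb after it 10. Dnah8, which encodes an axonemal dynein heavy chain, held 68, the most of any gene, and Btbd9 52. P0.5 epithelium had 160 peaks in the block and E14.5 epithelium 14, and 66 of the 159 overlapped one of P0.5 epithelium. Over all P0.5-only peaks that overlap was 3.99%. The run of peaks was thus present in both P0.5 tissues and sparse in both E14.5 tissues. Whether the DNA copy number of the block differed between the animals of the 2 stages was not tested. Without the block 26589 P0.5-only peaks remained.

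A block of E14.5-only peaks on chromosome 10 was seen in fibers. In 350 kb (chr10:92050001-92400000), over the noncoding RNA genes Rmst and Gm20757 and with no protein-coding gene, E14.5 fibers had 261 E14.5-only peaks and P0.5 fibers had 0 P0.5-only peaks. Both fiber lists also had 10 shared peaks there, and the epithelium lists had 7 and 4 peaks in all. Gm20757 was 37.5% covered in E14.5 fibers, 0.403% in P0.5 fibers, and in epithelium 0.419% at E14.5 and 0.298% at P0.5. Rmst, a long noncoding RNA known to bind Sox2, was 34.0% covered in E14.5 fibers, 0.529% in P0.5 fibers, and in epithelium 0.543% at E14.5 and 0 at P0.5. Mir1251 inside Rmst lay in an E14.5-only peak. The highest-ranked of the 261 peaks was at rank 21690, so the block is one of number and not of height. Over the genome, E14.5-only peaks outnumbered P0.5-only peaks in 4011 of 4848 windows of 500 kb, with medians of 11 and 2 per window.

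**Figure D4:**
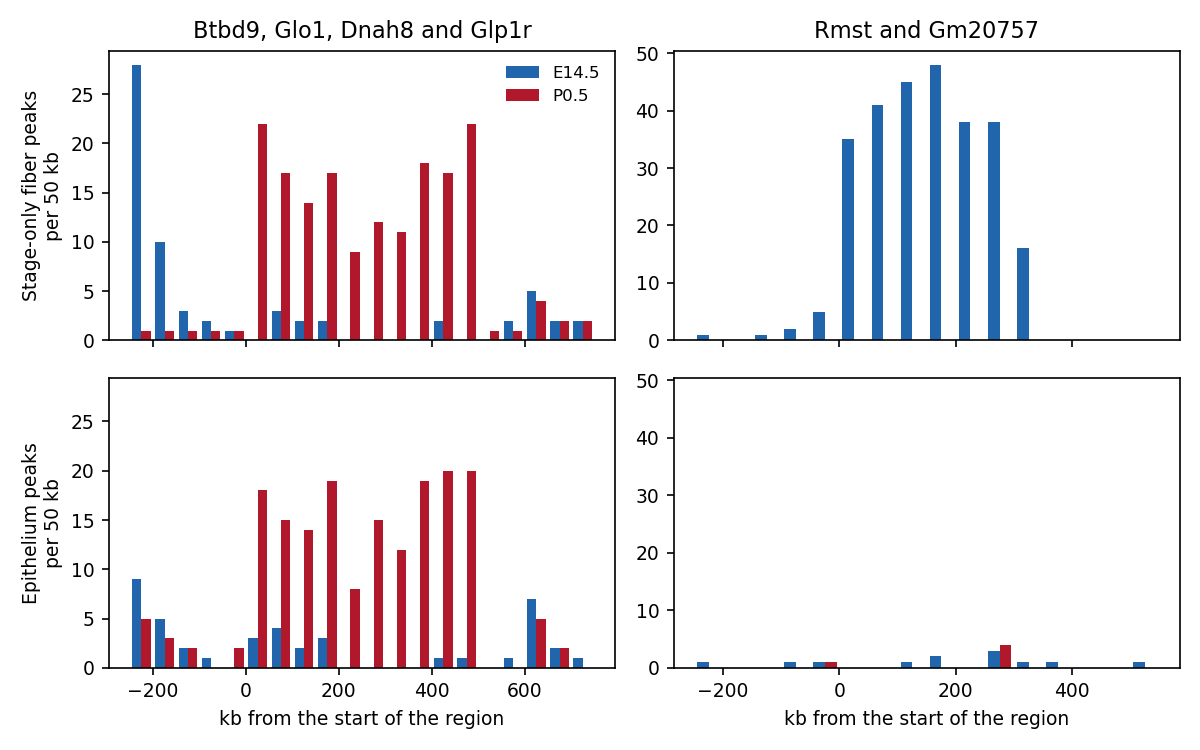
Bars count peaks in bins of 50 kb, with distance in kb from the start of each block on the x axis; the upper panels show stage-only fiber peaks and the lower panels all epithelium peaks, at E14.5 in blue and at P0.5 in red. The chromosome 17 block (left) holds 159 P0.5-only fiber peaks and 160 P0.5 epithelium peaks, and the chromosome 10 block (right) 261 E14.5-only fiber peaks against 7 and 4 epithelium peaks.

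The epithelium lists, which the rule did not use, overlapped the sets to unlike degrees. E14.5-only fiber peaks overlapped a peak of E14.5 epithelium in 39.99% of cases (39.7 to 40.3) and of P0.5 epithelium in 18.8%, and 57.9% were in neither. P0.5-only fiber peaks overlapped E14.5 epithelium in 8.69% and P0.5 epithelium in 3.99%, and 88.7% (88.3 to 89.1) were in neither. Shared peaks of the E14.5 list overlapped them in 82.7% and 69.2%. P0.5-only peaks were also narrower than E14.5-only ones (medians 148 and 249 bp), and fewer had q under 0.001 (24.96% and 76.3%). The part of width and strength in these overlaps was not tested.

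Among motif letters found in over 1% of both sets, those of CTCF, the insulator protein, had the lowest ratio of P0.5-only to E14.5-only shares. Its 12 letters stood in 5.45% of E14.5-only and 1.63% of P0.5-only summit windows, a difference of -3.82 points (-4.02 to -3.60), against 5.50% and 3.14% of all peaks of the 2 lists. Shared peaks held them in 5.67% and 4.25%. Outside promoters the shares were 5.65% in E14.5-only against 7.89% in shared E14.5 peaks, and 1.64% in P0.5-only against 5.93% in shared P0.5 peaks. The difference was -3.65 points among windows with 50 to 55% GC, -4.82 among peaks with q under 0.001 and -2.50 among peaks 150 to 250 bp wide.

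Letters of lens factor families went the same way. The Maf half-site stood in 26.2% of E14.5-only and 20.1% of P0.5-only windows (-6.09 points, -6.64 to -5.53; 24.7% and 18.9% of all peaks), and the Sox letters in 12.6% and 8.14% (-4.45, -4.83 to -4.05; 11.4% and 7.31%). AP-1 letters stood in 7.38% and 5.53% (6.77% and 4.79% of all peaks). TAATCC, read by Pitx factors, stood in 6.52% and 3.67% (5.85% and 3.39% of all peaks), TAATTA, a homeodomain core, in 2.22% and 0.853% (1.90% and 0.804%), and AGATAA, of Gata factors, in 7.20% and 4.52% (6.26% and 3.75%). The 2 homeodomain strings share their first letters and can overlap. Only the nuclear receptor half-site AGGTCA was clearly more frequent in P0.5-only windows (14.48% and 16.6%, 2.13 points, 1.63 to 2.63) among the 20 sets searched. It stood in 13.6% and 13.5% of all peaks, and in 100-bp windows the difference was 0.953 points. The intervals for CCGGAAG of Ets factors (1.41% and 1.48%) and CACGTG (3.96% and 4.06%) held 0. GC content, width and peak strength moved with these shares, as given above. Among windows with 50 to 55% GC the Sox difference was -2.09 points and the Maf difference -6.77, and the homeodomain difference was -0.612 points against -1.37 in all windows.

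**Figure D5:**
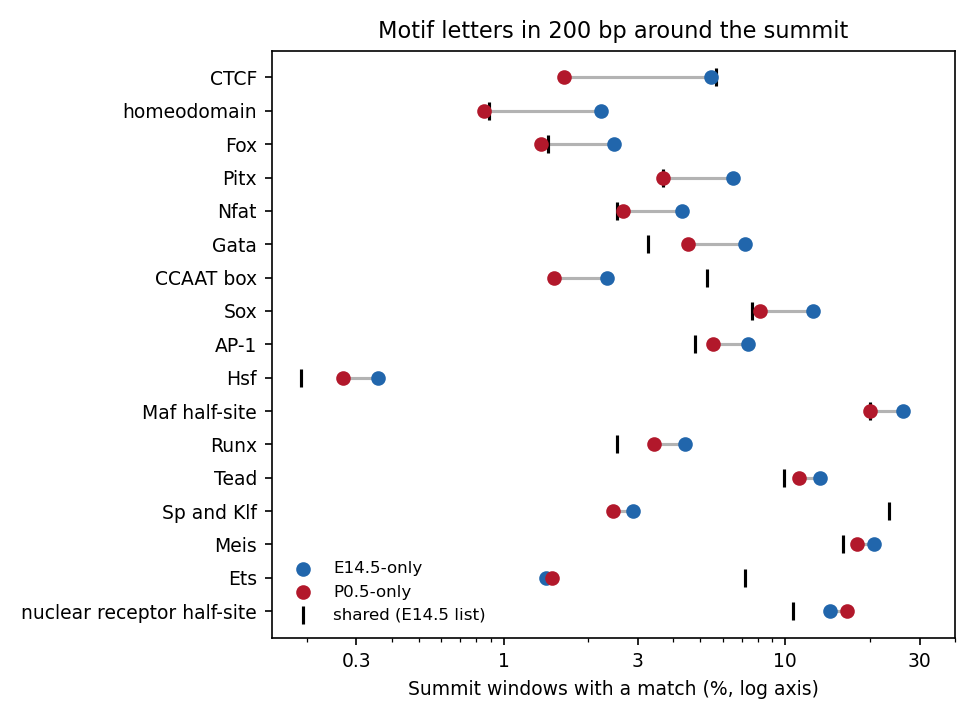
Points give the percentage of 200-bp summit windows that hold the letters of each motif, on a log axis, in E14.5-only (blue) and P0.5-only (red) fiber peaks, with a tick for shared peaks of the E14.5 list. CTCF is at 5.45% and 1.63%, next to 5.67% in shared peaks, and the nuclear receptor half-site at 14.48% and 16.6%.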

How the data were processed

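ATAC-seq libraries were made from nuclei of lens fibers. Per the labels and the study's methods, the authors trimmed reads with Trim Galore 0.4.1, aligned them to mm10 with Bowtie2 2.3.3.1, removed duplicates with Picard 2.1.1 and SAMtools 1.2, and called peaks in MACS2 2.1. The methods describe calls per library. The deposited lists are named as pooled over the 2 libraries of a group, and how they were pooled is not given in the sources used here. No blacklist was applied here. The deposited lists give, per peak, a fold enrichment at the summit, a −log10 p, a −log10 q and a score, which was not used. Every column belonged to a group, and 0 were left unassigned.

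Peaks of the fiber lists were compared by 1-bp overlap and placed on RefSeq GRCm38.p6 curated transcripts: promoter within 2 kb of a start site, then gene body, distal (50 kb of a gene) and intergenic. Peaks on unplaced scaffolds entered the counts but no location, motif or region. Coverage was taken for protein-coding genes of 1 kb or more. Motifs were read in 200-bp summit windows on both strands. Shares carry 95% Wilson and differences Newcombe intervals. Python 3.11.15, pandas 2.3.3, NumPy 2.4.6, SciPy 1.17.1, pysam 0.24.0, matplotlib 3.10.9 and samtools 1.23.1 were used, and the scripts were tested on simulated data.

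Genes were named by rank: those nearest the 10 highest-ranked stage-only peaks of each stage, the 10 highest-ranked lost and gained promoters, the 10 largest falls and rises of coverage, the 10 genes with most stage-only peaks, and members of the gene lists. Members and lists were chosen with earlier results of these data known. Results on some list members are not reported here.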

Additional observations from a re-analysis of the deposited data

How the results depend on the processing

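With q under 0.001 in both lists, 7257 peaks were P0.5-only, 132 promoters were gained, coverage rose in 34 genes, and the promoter share difference was -0.735 points, with an interval that held 0. With equal numbers of peaks, 38893 peaks were E14.5-only, 671 promoters were gained, coverage rose in 123 genes, and the promoter share differed by -0.579 points. When sharing required an overlap of 50% of both peaks, 53715 peaks were P0.5-only and the promoter share difference turned to +12.3 points. It was -2.19 points when a peak within 500 bp made a peak shared. With q under 0.001 at a peak's own stage, 6677 peaks were P0.5-only and the difference was -0.0838 points, again with 0 in the interval. Without the first 2 kb of each gene, coverage fell in 1880 and rose in 154 genes, and with a change of 25 points it fell in 1003 and rose in 4. The cause of these changes was not tested. The number of lost promoters stayed within 1.5 times under all 6 of its alternatives.

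Of the motif differences, CTCF was -4.82 points at q under 0.001 and -2.50 at widths of 150 to 250 bp. Maf was -7.41 at q under 0.001, -6.77 at 50 to 55% GC and -5.53 at those widths. Sox was -4.88 without promoters, -3.25 in 100-bp windows, -5.59 at q under 0.001 and -2.09 at 50 to 55% GC. The nuclear receptor half-site was 0.953 in 100-bp windows. The q, GC and width settings, and the setting without the chromosome 17 region, were chosen after seeing the data.

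No paired analysis was possible because the lists hold no values per library, and leaving out a library was not possible for the same reason. The lists hold no read counts.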

Other observations

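The X chromosome held few P0.5-only fiber peaks. They were 93 of 571 P0.5 peaks on X (16.3%, 13.5 to 19.5) and 42.7% of those on autosomes. Promoter peaks made up 73.4% of X and 33.3% of autosomal P0.5 peaks, and outside promoters the shares were 52.6% (44.7 to 60.4) and 57.8%. E14.5-only peaks were 74.4% on X and 76.2% on autosomes, and 93.01% and 84.7% outside promoters.

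Noncoding genes, taken as groups after their values were seen, lost more promoter peaks than they gained, as did protein-coding genes (8.28% lost and 1.71% gained). Of 3318 long noncoding RNA genes 484 lost and 82 gained the peak, of 1228 microRNA genes 177 lost and 83 gained it, and of 126 small nucleolar RNA genes 24 lost and 2 gained it. Many of the small RNA genes lie inside other genes or have near-identical copies.

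Some gene families held gains beside losses, where 8.28% of all protein-coding genes lost and 1.71% gained a promoter peak. Of 39 Hox genes, which pattern the body axis, 9 lost the promoter peak (Hoxa6, Hoxb7 and Hoxd10 among them) and 6 gained it (Hoxa2, Hoxb1 and Hoxd4 among them). Of 52 clustered protocadherins 9 lost and 8 gained it, of 53 keratins 4 lost and 3 gained it (Krt9, Krt17 and Krt80), and of 1103 olfactory receptors 10 lost and 20 gained it. With equal numbers of peaks in both lists Hox genes had 3 lost and 11 gained, keratins 2 and 8, and protocadherins 5 and 8, against 1226 and 671 of 21000 genes, and olfactory receptors were not counted. Losses in 2 housekeeping lists were 5% and 5.95% of members, of which 77 of 80 and 82 of 84 held an E14.5 promoter peak. Of all genes 8.28% lost the peak, and of all genes with an E14.5 promoter peak 11.6%. Of 80 ribosomal protein genes 73 kept the peak, 4 lost it and 0 gained it, and of 84 nuclear respiratory chain genes 77 kept it, 5 lost it and 0 gained it. Gene body coverage fell by 10 points or more in 61 of 77 ribosomal protein and 25 of 83 respiratory chain genes of 1 kb or more, against 17.4% of all genes.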
